A study of Mus musculus with 45 samples.

Results

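The genes described here are 10 genes of de novo lipogenesis, the making of fatty acids from acetyl-CoA in the liver. They are *Acly*, *Acaca*, *Acacb*, *Fasn*, *Elovl6*, *Scd1*, *Me1*, *Srebf1*, *Thrsp* and *Pnpla3*, listed by symbol as genes of the pathway and as targets of the transcription factors SREBP1 and ChREBP. All 10 were found among the 39179 Ensembl genes of the count tables, and all 10 had more than 4 reads in at least 1 liver, the limit that kept 17464 genes for testing. Liver RNA was sequenced from 45 female C57BL/6 mice in 9 groups of 5. From postnatal day 28 each mouse was given, every 4 days for 28 days by gavage, either sesame oil vehicle or TCDD, a dioxin that activates the aryl hydrocarbon receptor (AhR). The 8 doses of TCDD were 0.01 and 0.03 µg/kg, 0.1 and 0.3 µg/kg, 1 and 3 µg/kg, and 10 and 30 µg/kg. The labels also give an ovariectomy for all groups and the word daily, neither of which is in the study's methods. Mice were fed ad libitum, and the hour of death is not given in the sources used here.

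In lipogenesis, ATP citrate lyase (*Acly*) splits cytosolic citrate to acetyl-CoA, the acetyl-CoA carboxylases (*Acaca*, *Acacb*) turn it into malonyl-CoA, and fatty acid synthase (*Fasn*) builds palmitate with NADPH, part of which comes from malic enzyme (*Me1*). *Elovl6* then lengthens palmitate and *Scd1* places a double bond to give oleate. In the liver these genes are switched on after feeding, by insulin through SREBP1 (encoded by *Srebf1*) and by glucose through ChREBP (encoded by *Mlxipl*), and are turned down in fasting.

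Reads on genes ranged from 11767284 to 56509899 per liver. *Cyp1a1*, the classical AhR target, rose from 1.34 to 16.6 CPM (TMM-normalized reads, scaled to a common library size) in the vehicle livers to 6020.4 to 9064 CPM at 30 µg/kg. Of 8 hepatocyte markers 5 were called lower at 30 µg/kg, against 14.1% of all genes. *Alb* differed by -0.08 on the log2 scale and was not called. Libraries that stood apart were in the 0.01 µg/kg group, where replicate 2 held 2.93 CPM of *Xist* against 1112 to 2844 CPM in the other 44 livers, and replicate 5 held 144 CPM of the macrophage gene *Marco* and 69.7 CPM of *Cyp1a1* (other 0.01 µg/kg livers, 1.18 to 4.54). No lipogenesis gene was called at this dose with or without either library, and the slope over dose rank described below was called lower for 8 genes without either.

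Of the 10 lipogenesis genes 8 fell at 30 µg/kg (14.1% of all genes tested were called lower there), and none was called higher at any dose. The fall was largest for *Pnpla3* (18-fold), *Fasn* (5.72-fold), *Acly* (4.17-fold) and *Elovl6* (3.69-fold), and *Acacb* and *Thrsp* did not pass the test at any dose. A gene was called at an adjusted p under 0.05 in edgeR's quasi-likelihood test against vehicle, with Benjamini-Hochberg adjustment over all genes tested at that dose. In bulk liver, fewer cells of a type and less RNA per cell cannot be told apart.

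**Figure D1:**
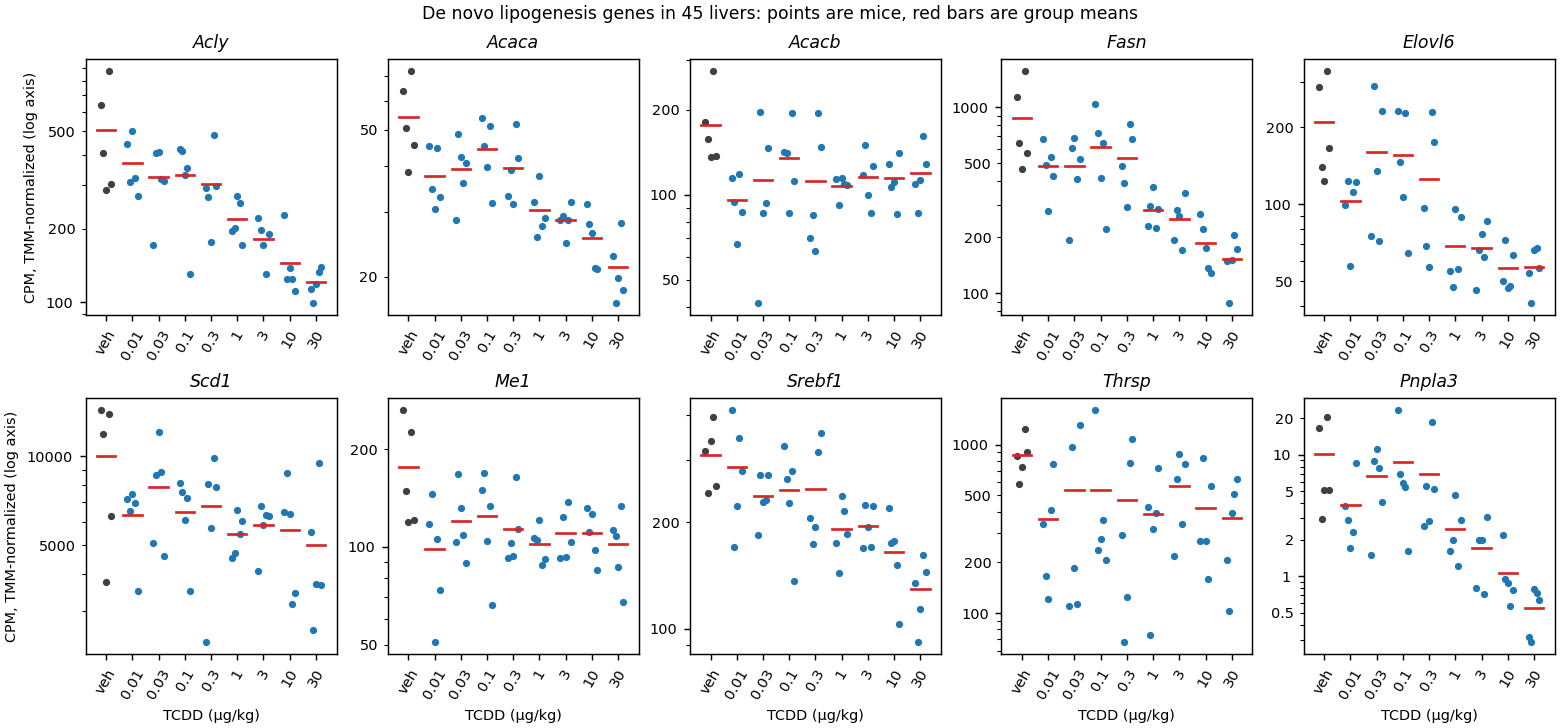
Expression of the 10 lipogenesis genes in each liver, in TMM-normalized CPM on a log axis, by TCDD dose. Points are mice (5 per group, vehicle in dark grey) and red bars are group means; the *Fasn*, *Acly*, *Acaca*, *Elovl6* and *Pnpla3* means are lower at 1 to 30 µg/kg than at 0.1 and 0.3 µg/kg, whereas *Thrsp* spans 67.3 to 1614 CPM among treated livers with no order by dose.

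The promoters of the 4 genes that fell most are printed so that matches to the core motif of AhR and to the inverted CCAAT box can be read beside the expression values. Each window runs from 250 bases before to 50 bases after the RefSeq start on GRCm38.p6, written 5′ to 3′ on the gene's strand, and windows were matched for 9 of the 10 genes, all but *Scd1*. Capitals mark exact matches, on either strand, to GCGTG, the core of the dioxin response element that AhR binds, and to ATTGG, the inverted CCAAT box that the SREBP partner NF-Y binds.
Fasn, chr11:120824498-120824797, minus strand: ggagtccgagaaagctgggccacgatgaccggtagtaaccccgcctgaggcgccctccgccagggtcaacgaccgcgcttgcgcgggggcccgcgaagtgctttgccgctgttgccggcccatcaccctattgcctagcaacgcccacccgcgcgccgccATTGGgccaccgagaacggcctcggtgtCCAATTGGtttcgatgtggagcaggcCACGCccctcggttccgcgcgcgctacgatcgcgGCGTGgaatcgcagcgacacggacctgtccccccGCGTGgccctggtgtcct
Pnpla3, chr15:84167566-84167865, plus strand: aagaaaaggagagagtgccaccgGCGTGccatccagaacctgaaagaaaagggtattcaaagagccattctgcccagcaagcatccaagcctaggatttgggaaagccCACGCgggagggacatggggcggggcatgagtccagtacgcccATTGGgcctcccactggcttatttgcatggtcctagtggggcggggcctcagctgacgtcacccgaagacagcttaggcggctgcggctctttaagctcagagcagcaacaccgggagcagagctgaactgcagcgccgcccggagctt
Acly, chr11:100527951-100528250, minus strand: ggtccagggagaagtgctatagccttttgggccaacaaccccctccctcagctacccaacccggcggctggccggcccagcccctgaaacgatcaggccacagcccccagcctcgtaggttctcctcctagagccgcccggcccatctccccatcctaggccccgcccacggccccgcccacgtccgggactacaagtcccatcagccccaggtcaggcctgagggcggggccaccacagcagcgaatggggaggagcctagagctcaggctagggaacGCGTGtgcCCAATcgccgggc
Elovl6, chr3:129532136-129532435, plus strand: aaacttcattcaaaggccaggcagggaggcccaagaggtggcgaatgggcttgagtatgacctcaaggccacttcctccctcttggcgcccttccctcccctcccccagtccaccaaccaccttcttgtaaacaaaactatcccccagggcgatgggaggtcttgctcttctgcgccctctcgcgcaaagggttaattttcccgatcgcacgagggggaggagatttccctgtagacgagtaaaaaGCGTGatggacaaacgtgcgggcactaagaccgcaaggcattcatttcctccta
The *Fasn* window held 3 GCGTG matches, starting at bases -36, -2 and 33 from the start, and 3 ATTGG matches at -90, -62 and -59, the last pair overlapping. *Pnpla3* held GCGTG at -227 and -142 and ATTGG at -99. *Acly* held 1 match to each, at 30 and 38, and *Elovl6* a single GCGTG at -4. Over the 9 genes, 5 held GCGTG (*Acly*, *Acacb*, *Fasn*, *Elovl6*, *Pnpla3*), against 35.2% of 27025 genes and 32.4% of all 32851 windows, and 7 held ATTGG, against 41.1% of genes and 37.4% of windows. *Acacb*, which was not called, held both, in a window (chr5:114165268-114165567) that lies inside the gene's span given below. The *Acaca* window (chr11:84195188-84195487), which held neither, also lies inside its gene. *Me1* and *Srebf1* had more than a single window each, and the ATTGG of *Me1* was in an internal one (chr9:86687228-86687527). No match was found in the windows of these 9 genes to the sterol regulatory element TCACNCCAC (1.24% of windows), the E-box CACGTG (7.15%) or the DR4 element of LXR, a direct repeat with a spacer (0.0152%), which says only that these letters were not there.

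Vehicle livers differed widely from each other before any dose was considered. The highest vehicle liver exceeded the lowest 3.38-fold for *Fasn*, 3.83-fold for *Scd1* and 6.85-fold for *Pnpla3*, but only 1.64-fold for *Srebf1*. The same mice were high for most genes: replicates 1 and 4 were the pair of highest vehicle livers for 8 of the 10 genes, and replicate 3 was the lowest for 7. All comparisons with vehicle rest on these 5 mice, so errors of the vehicle mean are shared by every dose.

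*Acly*, the entry step, fell at 1, 3, 10 and 30 µg/kg. It lies at chr11:100476353-100528000 on the minus strand of GRCm38. The 5 vehicle livers held 638, 407, 288, 881 and 304 CPM, and the 5 livers at 30 µg/kg held 113, 99.2, 119, 133 and 139 CPM. Every liver at 1 µg/kg (171 to 273 CPM) and above lay under the lowest vehicle liver. Against vehicle, *Acly* differed on the log2 scale by -1.20 ± 0.28 (SE, n = 5 mice per group) at 1 µg/kg, -1.47 at 3, -1.79 at 10 and -2.06 ± 0.29 at 30 µg/kg, with adjusted p from 0.0113 to 3.12e-07 in edgeR. The call at 1 µg/kg was lost without vehicle replicate 4 (log2 fold change -0.90, adjusted p = 0.0919). At the 4 lower doses the difference lay between -0.73 and -0.45 and was not called.

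Of the acetyl-CoA carboxylases, *Acaca* was called lower from 1 µg/kg and *Acacb* at no dose. *Acaca* (chr11:84129672-84401651, plus strand) encodes the cytosolic enzyme whose malonyl-CoA is used for synthesis, and *Acacb* (chr5:114146535-114250761, plus strand) the enzyme at mitochondria whose malonyl-CoA restrains fatty acid entry. *Acaca* held 63.8, 50.6, 38.4, 72.4 and 45.5 CPM in vehicle livers and 22.7, 16.9, 19.9, 28.0 and 18.4 CPM at 30 µg/kg, without overlap from 1 µg/kg upward. Its log2 fold change went from -0.84 ± 0.17 (SE) at 1 µg/kg to -1.35 ± 0.17 at 30 µg/kg (adjusted p = 3.78e-08, edgeR), the smallest standard error of the 10 genes. *Acacb* held 181, 158, 136, 275 and 137 CPM in vehicle livers and 109, 86.0, 112, 162 and 129 CPM at 30 µg/kg, so that 4 of 5 treated livers were below every vehicle liver and 1 was not. Its log2 fold change stayed between -0.88 (at 0.01 µg/kg) and -0.39 with no order by dose, and at 30 µg/kg it was -0.57, with a 95% interval of -1.13 to -0.0046 (adjusted p = 0.123).

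The ratio of *Acaca* to *Acacb* was taken within each liver, as a description with no test, since this and the other ratios were chosen after the values were seen. It was 0.263 to 0.353 in vehicle livers, 0.149 to 0.262 at 10 µg/kg and 0.143 to 0.209 at 30 µg/kg, so all 5 livers at each dose were below every vehicle liver. The mean log2 ratio differed from vehicle by -0.47 at 10 and by -0.79 at 30 µg/kg (n = 5 mice per group).

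*Fasn* (chr11:120805846-120824547, minus strand), whose promoter is printed above, showed the second largest fall. Vehicle livers held 1144, 645, 466, 1574 and 569 CPM. At 1 µg/kg the livers held 231, 295, 374, 225 and 285 CPM, and at 30 µg/kg 149, 88.5, 152, 207 and 172 CPM. All 20 livers at 1 µg/kg and above lay under the lowest vehicle liver, whereas livers at 0.01 to 0.3 µg/kg ranged from 194 to 1044 CPM and overlapped with vehicle. The difference from vehicle was, as log2, -1.64 ± 0.34 (SE) at 1, -1.81 at 3, -2.24 at 10 and -2.52 ± 0.36 at 30 µg/kg, with adjusted p from 0.00336 to 4.21e-07 in edgeR.

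The genes that finish the fatty acid split by size of change. *Elovl6* (chr3:129532355-129638495, plus strand) held 289, 139, 123, 333 and 166 CPM in vehicle livers and 54, 41.0, 66.2, 67.4 and 56.1 CPM at 30 µg/kg. Its fall was already -1.61 ± 0.36 on the log2 scale at 1 µg/kg and -1.88 ± 0.37 at 30 µg/kg (adjusted p = 9.71e-05, edgeR), with no overlap from 1 µg/kg upward and little further change over the top doses. *Scd1* (chr19:44394455-44407879, minus strand) held 14407, 11911, 3757, 13931 and 6295 CPM in vehicle livers and 5560.4, 2574, 3706, 9510.0 and 3675 CPM at 30 µg/kg. The groups overlapped, with 3 of 5 treated livers below the lowest vehicle liver and replicate 4 above 2 of the vehicle livers. *Scd1* was called at 30 µg/kg alone, at -1.01 ± 0.35 (adjusted p = 0.0238, edgeR), and this call was lost without any one of vehicle replicates 1, 2 or 4 or of 30 µg/kg replicates 2, 3 or 5 (adjusted p from 0.0546 to 0.0824).

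*Me1* (chr9:86581371-86695953, minus strand), a source of NADPH, held 265, 149, 119, 226 and 121 CPM in vehicle livers and 113, 108, 87.0, 134 and 67.6 CPM at 30 µg/kg. Of the treated livers, 4 lay below every vehicle liver and 1 above 2 of them. As log2 fold change it was -0.67 ± 0.24 at 10 µg/kg (adjusted p = 0.0482, edgeR) and -0.79 ± 0.24 at 30 µg/kg (adjusted p = 0.0109), and it was already -0.83 ± 0.24 at 0.01 µg/kg, where it was not called (adjusted p = 0.239). The call at 30 µg/kg was lost without vehicle replicate 1 (log2 fold change -0.59, adjusted p = 0.0663), and that at 10 µg/kg without any one of vehicle replicates 1, 2 or 4 or 10 µg/kg replicates 2, 4 or 5 (adjusted p from 0.0544 to 0.196).

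*Fasn* was also read against *Scd1* and *Me1* within the same livers. The *Fasn* to *Scd1* ratio was 0.0541 to 0.124 in vehicle livers and 0.0218 to 0.0468 at 30 µg/kg, a mean log2 difference of -1.43. The *Fasn* to *Me1* ratio was 3.90 to 6.96 in vehicle livers and 0.817 to 2.55 at 30 µg/kg, a difference of -1.66. Both ratios were lower in 5 of 5 livers at 10 and at 30 µg/kg than in every vehicle liver.

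*Srebf1* (chr11:60199089-60222581, minus strand), which encodes SREBP1, fell at 10 and 30 µg/kg. It held 317, 242, 338, 396 and 253 CPM in vehicle livers and 134, 91.5, 114, 161 and 144 CPM at 30 µg/kg. All livers at 1 µg/kg and above were below the lowest vehicle liver, although the call came at 10 µg/kg (log2 fold change -0.91 ± 0.22, adjusted p = 0.00299, edgeR) and at 30 µg/kg (-1.26 ± 0.22, adjusted p = 2.21e-05). Its change at 3 µg/kg was -0.66 with an adjusted p of 0.0545 (edgeR), which DESeq2 put at 0.0306. The ratio of *Srebf1* to *Fasn* was 0.252 to 0.726 in vehicle livers and 0.749 to 1.03 at 30 µg/kg, higher by 1.15 on the log2 scale, with 5 of 5 livers above every vehicle liver. *Srebf1* shares 175 of its 5634 exonic bases with *Rai1* and *Mir6922*, and reads there cannot be assigned with certainty.

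*Thrsp* (chr7:97412938-97417730, minus strand), a lipogenic protein named for its response to thyroid hormone, varied widely among treated livers. Vehicle livers held 854, 586, 736, 1238 and 909 CPM and livers at 30 µg/kg 208, 103, 395, 509.9 and 625 CPM, 4 of 5 of them below every vehicle liver. As log2, *Thrsp* at 30 µg/kg differed by -1.23 ± 0.69, with a 95% interval of -2.63 to 0.17 (adjusted p = 0.184, edgeR). Treated livers of a single group differed by more than 10-fold at 0.03 µg/kg (109.8 to 1315 CPM) and 0.3 µg/kg (67.3 to 1085 CPM). *Thrsp* differed by -1.26 at 0.01 µg/kg, a value close to that at 30 µg/kg.

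*Pnpla3* (chr15:84167837-84187236, plus strand), a lipid droplet protein gene that is induced with the pathway, had the largest fold change and the lowest counts. Vehicle livers held 16.6, 2.99, 5.12, 20.5 and 5.16 CPM. At 10 µg/kg the livers held 2.17, 0.949, 0.887, 0.566 and 0.772 CPM and at 30 µg/kg 0.316, 0.286, 0.778, 0.724 and 0.641 CPM, which were 5 to 22 reads per liver. Every liver at both doses was below the lowest vehicle liver. Log2 fold changes were -2.47 ± 0.60 at 3, -3.18 ± 0.64 at 10 and -4.17 ± 0.71 at 30 µg/kg (adjusted p = 1.28e-05, edgeR), and the interval at 30 µg/kg ran from -5.60 to -2.74. *Pnpla3* shares 105 of its 1548 exonic bases with *Gm49513* on the same strand, so reads there cannot be assigned with certainty, and *Elovl6* and *Me1* share 34 and 30 bases with genes on the opposite strand.

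Across the pathway, the number of genes called lower was 0 at each of the 4 lowest doses, 4 at 1, 5 at 3, 7 at 10 and 8 at 30 µg/kg. Of all genes tested, 0.0%, 0.0229%, 0.0%, 0.143%, 0.515%, 3.2%, 7.47% and 14.1% were called lower at the 8 doses from lowest to highest, and 0.0%, 0.0344%, 0.0229%, 0.321%, 1.24%, 4.34%, 8.47% and 15.5% were called higher, against 0 of the 10. With a fold change of at least 2 as well, 3, 4, 5 and 7 of the 10 were called at 1, 3, 10 and 30 µg/kg, against 0.195%, 0.819%, 1.73% and 3.42% of all genes (0.0%, 0.0115%, 0.0% and 0.0458% at the 4 lower doses, with 0 of the 10). The median log2 fold change of the 10 genes was -1.02 at 1, -0.85 at 3, -1.06 at 10 and -1.31 at 30 µg/kg, while the median of all genes stayed within 0.03 of 0.

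The groups did not overlap with vehicle for 6 of the 10 genes at 1 µg/kg, 5 at 3, 6 at 10 and 6 at 30 µg/kg, counting genes with all 5 treated livers below every vehicle liver. This held for 2.0%, 3.36%, 6.13% and 9.57% of all genes at those doses. At 0.01 µg/kg it held for 1 gene, *Acacb*, against 0.756% of all genes, and at 0.03, 0.1 and 0.3 µg/kg for none of the 10, against 1.34%, 0.263% and 0.899%.

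**Figure D2:**
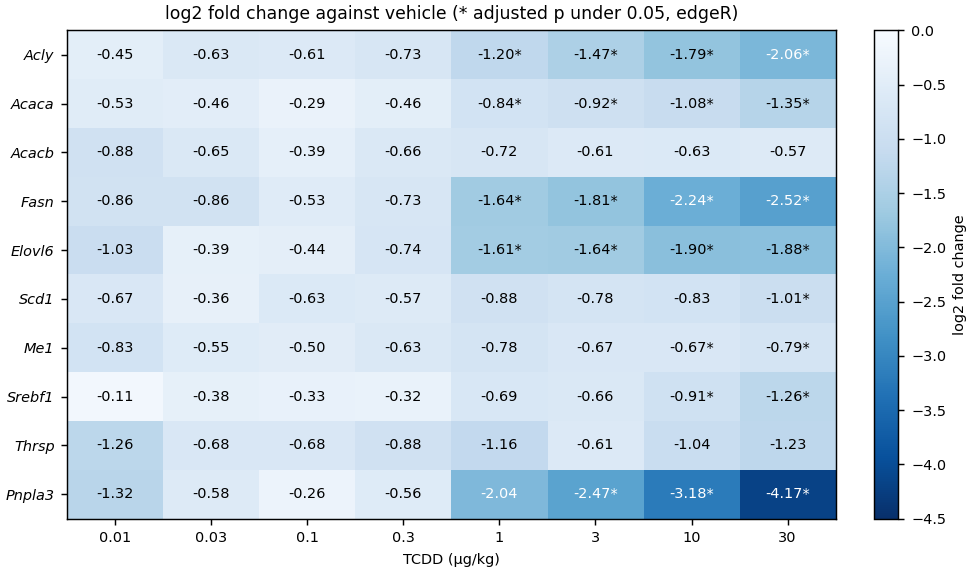
Log2 fold change of each lipogenesis gene (rows) against vehicle at each TCDD dose (columns), with an asterisk where the adjusted p was under 0.05 in edgeR. Asterisks start at 1 µg/kg for *Acly*, *Acaca*, *Fasn* and *Elovl6*, at 3 for *Pnpla3*, at 10 for *Me1* and *Srebf1* and at 30 for *Scd1*, and *Acacb* and *Thrsp* have none.

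At the 4 lowest doses the 10 genes were also under vehicle by value, with a median log2 fold change of -0.85 at 0.01, -0.56 at 0.03, -0.47 at 0.1 and -0.65 at 0.3 µg/kg. With adjustment within each dose no gene was called there by edgeR or by DESeq2, whereas adjustment over all genes and the 8 doses together called *Me1* at 0.01 µg/kg (adjusted p = 0.0273, edgeR). At these doses, 6, 5, 2 and 6 of the 10 had an unadjusted p under 0.05, against 10.1%, 11.7%, 5.15% and 10.5% of all genes. These 4 comparisons share the same vehicle livers, of which replicates 1 and 4 were high, and are not separate evidence of a low-dose change.

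The slope over dose rank used all 45 livers. It was called lower for 8 of the 10 genes, against 19.7% of all genes tested. The slope per dose step was -0.44 ± 0.07 (SE) for *Pnpla3*, -0.29 for *Fasn*, -0.24 for *Acly*, -0.24 for *Elovl6*, -0.14 for *Acaca*, -0.14 for *Srebf1*, -0.10 for *Scd1* and -0.06 ± 0.02 for *Me1* on the log2 scale, with adjusted p from 5.15e-11 to 0.0305 (edgeR). *Acacb* (-0.04, adjusted p = 0.271) and *Thrsp* (-0.09, adjusted p = 0.247) were not called. The *Me1* slope lost its call without vehicle replicate 1 (adjusted p = 0.147), vehicle replicate 4 (0.105), 30 µg/kg replicate 5 (0.0528) or the whole 30 µg/kg group (0.0787), and with scaling by library size alone (slope -0.04, adjusted p = 0.188). Without the vehicle group, a choice made after the values were seen, 6 genes kept a lower slope, and *Scd1* (adjusted p = 0.116) and *Me1* (adjusted p = 0.719) did not. The share of all genes with a lower slope in that fit was not counted. Between neighbouring doses no step passed the test for any gene in 70 comparisons (smallest adjusted p = 0.713 in edgeR, 4 at an unadjusted p under 0.05), against 0.0%, 0.0115%, 0.0458%, 0.115%, 0.178%, 0.784% and 0.613% of all genes called in either direction from the lowest step to the highest.

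Levels between genes were compared per kilobase of exon, taken as the union of all annotated exons of a gene (17.1 kb for *Acaca*). In vehicle livers *Scd1* led with 2056 CPM per kb, followed by *Thrsp* (395), *Acly* (95.4), *Fasn* (80.3), *Srebf1* (54.9), *Me1* (45.7), *Elovl6* (32.7), *Acacb* (18.4), *Pnpla3* (6.51) and *Acaca* (3.17). At these spreads several neighbours in rank did not separate. Among them were *Acly* (SD 48) and *Fasn* (SD 42.7), and *Srebf1* (SD 11.3) and *Me1* (SD 17.1). *Me1* and *Elovl6* (SD 14.7), and *Pnpla3* (SD 5.11) and *Acaca* (SD 0.81), did not separate either. At 30 µg/kg *Fasn* was sixth with 14.0 ± 3.9 CPM per kb (SD, n = 5), behind *Me1* (26.5), *Acly* (22.9) and *Srebf1* (22.9), and *Pnpla3* was last with 0.355.

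The genes varied together from liver to liver. Over the 45 livers Pearson's r between pairs of the 10 genes had a median of 0.60 (45 pairs, 0.24 to 0.95), and after the group means were subtracted it had a median of 0.60 (0.13 to 0.86). The highest pair was *Acaca* with *Fasn* (0.95 over values, 0.86 over deviations), and the weakest in deviations was *Me1* with *Thrsp* (0.13). *Thrsp* had its highest r with *Acacb* over values (0.68) and with *Elovl6* over deviations (0.78). These correlations are descriptions over livers that share dose groups, libraries and one normalization.

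**Figure D3:**
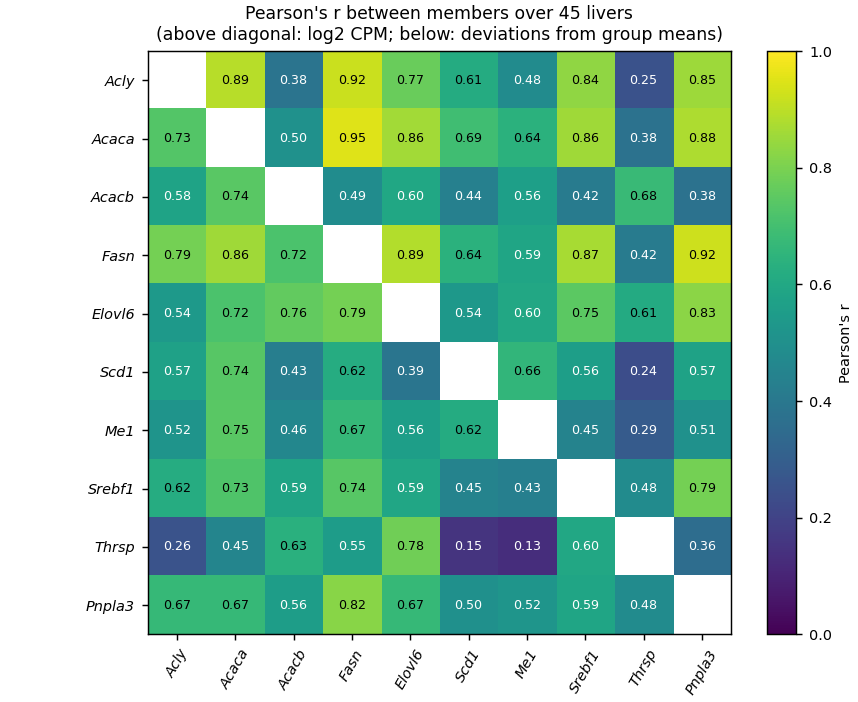
Pearson's r between the 10 lipogenesis genes over 45 livers, from log2 CPM above the diagonal and from deviations from the group means below it, on a colour scale from 0 to 1. *Acly*, *Acaca*, *Fasn* and *Pnpla3* have r of 0.85 to 0.95 with each other over values, and *Thrsp* has the lowest r over values (0.24, with *Scd1*) and over deviations (0.13, with *Me1*).

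Among 7667 other genes with a mean of at least 10 CPM, those most like the mean z-score of the 10 genes over 45 livers were *Mid1ip1* (r = 0.86), *Slc25a44* (0.85), *Pklr* (0.85), *Acss2* (0.83) and *Pygl* (0.82). *Mid1ip1* encodes a paralog of the *Thrsp* protein that helps acetyl-CoA carboxylase polymerize, *Pklr* liver pyruvate kinase, *Acss2* the cytosolic acetyl-CoA synthetase and *Pygl* liver glycogen phosphorylase. For *Fasn* alone the order was *Mid1ip1* (0.91), *Slc25a44* (0.91), *Pklr* (0.90), *Pygl* (0.88) and *Sfxn5* (0.86). At the other end were *Gss* (-0.79), *Plpp2* (-0.77), *Nlrp12* (-0.76), *Tnfaip8l1* (-0.76) and *Pla2g12a* (-0.74), which rose at 30 µg/kg by 0.74 to 1.74 on the log2 scale. *Mid1ip1* and *Pklr* ranked first and second when deviations from the group means were used in place of values.

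Genes that act on the pathway were read from lists of related function. Some genes are in more than a single list, among them *Mid1ip1*, *Insig1*, *Acss2*, *Elovl5*, *Fads1*, *Gpam* and *Fgf21*. The counts of the lists are therefore not separate evidence. The shares of all genes called at 30 µg/kg were 14.1% lower and 15.5% higher. Of 21 regulators, 10 were called lower and 0 higher at 30 µg/kg, with a median log2 fold change of -0.36 against 0.02 for all genes. *Mlxipl*, which encodes ChREBP, held 272 to 367 CPM in vehicle livers and 123 to 171 CPM at 30 µg/kg without overlap, a log2 fold change of -1.17 ± 0.15 (adjusted p = 7.92e-08, edgeR), and it was called from 3 µg/kg. *Mid1ip1* (-1.51), *Ppargc1b*, a coactivator of SREBP1 (-1.09), *Insig1*, which retains SREBPs in the endoplasmic reticulum and is itself a target (-1.09), and *Scap*, their escort (-0.77), also fell. *Srebf2* (-0.16), *Nr0b2* (0.11) and the ChREBP partner *Mlx* (0.19) were not called.

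Of 14 other SREBP1 targets, 10 were called lower and 1 higher at 30 µg/kg (median -0.98), against 14.1% and 15.5% of all genes. *Acss2* (-1.81), *Rdh11* (-1.65) and *Mid1ip1* (-1.51) fell most on the log2 scale, while *Elovl5*, an elongase of polyunsaturated fatty acids, rose by 1.18. At 1 µg/kg, where 4 of the 10 lipogenesis genes were called lower, none of the 14 was, although the difference between the lists was not tested.

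Of 12 other ChREBP targets, 8 were called lower and 1 higher at 30 µg/kg (median -1.08), against 14.1% and 15.5% of all genes. *Rgs16*, a G-protein signalling regulator induced by glucose (-3.76), *Pklr* (-2.80) and *Khk*, the ketohexokinase of fructose entry (-1.90), fell most.  *Pklr* and *Khk* were called from 0.3 µg/kg, and the first of the 10 lipogenesis genes from 1 µg/kg, a difference in dose that was not tested. *Pklr* held 368, 287, 259, 431 and 228 CPM in vehicle livers and 40.1 to 56.3 CPM at 30 µg/kg. *Fgf21*, a hepatokine that both feeding and fasting signals can induce, rose from 0.0708 to 0.657 CPM in vehicle livers to 2.73 to 35.5 CPM at 30 µg/kg.

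Genes of substrate and reducing power supply were read in the same way. Of 10 other genes of NADPH supply, 2 were called lower and 1 higher at 30 µg/kg (median -0.07). These counts were close to the shares of all genes (14.1% lower and 15.5% higher). The mitochondrial transhydrogenase gene *Nnt* (-0.73) and *Idh1* (-0.36) fell, *H6pd* of the endoplasmic reticulum rose by 0.54, and the pentose phosphate genes *G6pdx* (-0.22) and *Pgd* (0.05) were not called. Of 11 genes of citrate and acetyl-CoA supply, 7 were called lower and 0 higher, with *Acss2* (-1.81) lowest, followed by the mitochondrial pyruvate carrier genes *Mpc2* (-0.71) and *Mpc1* (-0.54).

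Among 16 other elongase and desaturase genes, 7 were called lower and 2 higher at 30 µg/kg, against 14.1% and 15.5% of all genes. *Elovl3* fell by 3.09 at low counts (mean 2.35 against 0.255 CPM), and the polyunsaturated desaturase gene *Fads1* (-1.49) and *Elovl2* (-1.27) also fell. *Elovl5* rose by 1.18, and *Elovl7* rose by 1.18 at low counts (mean 0.497 against 1.10 CPM). Of 11 tested genes of malonyl-CoA turnover and AMPK, which phosphorylates the carboxylases, 3 were called lower, namely *Prkag2* (-0.93), *Prkaa2* (-0.76) and *Stk11* (-0.41), and *Cpt1a*, which malonyl-CoA inhibits, was not (0.18).

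Downstream of fatty acids, calls went in both directions, some of them at about the rate of all genes. Of 16 triglyceride synthesis genes, 5 were called lower and 2 higher at 30 µg/kg, against 14.1% and 15.5% of all genes. The 2 triglyceride genes called higher and the 2 droplet genes called lower were near these shares. *Agpat2* (-1.10), *Dgat2* (-1.07) and *Gpam* (-1.01) fell most among genes with at least 10 reads on average, while *Lpin3* rose by 1.20 and *Agpat5* by 0.77. Of 15 tested lipid droplet and lipolysis genes, 4 were called higher (*Hilpda* by 1.52, *Mgll* by 1.09, *Abhd5* by 0.48 and *Hsd17b13* by 0.33) and 2 lower (*Lipe*, -0.69, and *Cideb*, -0.31). Of 8 targets of the oxysterol receptor LXR outside lipogenesis, 2 were called higher, *Abcg1* by 1.80 and *Smpdl3a* by 0.37, and 3 lower, *Lpcat3* (-0.58), *Abcg8* (-0.53) and *Nr1h3* (-0.44).

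**Figure D4:**
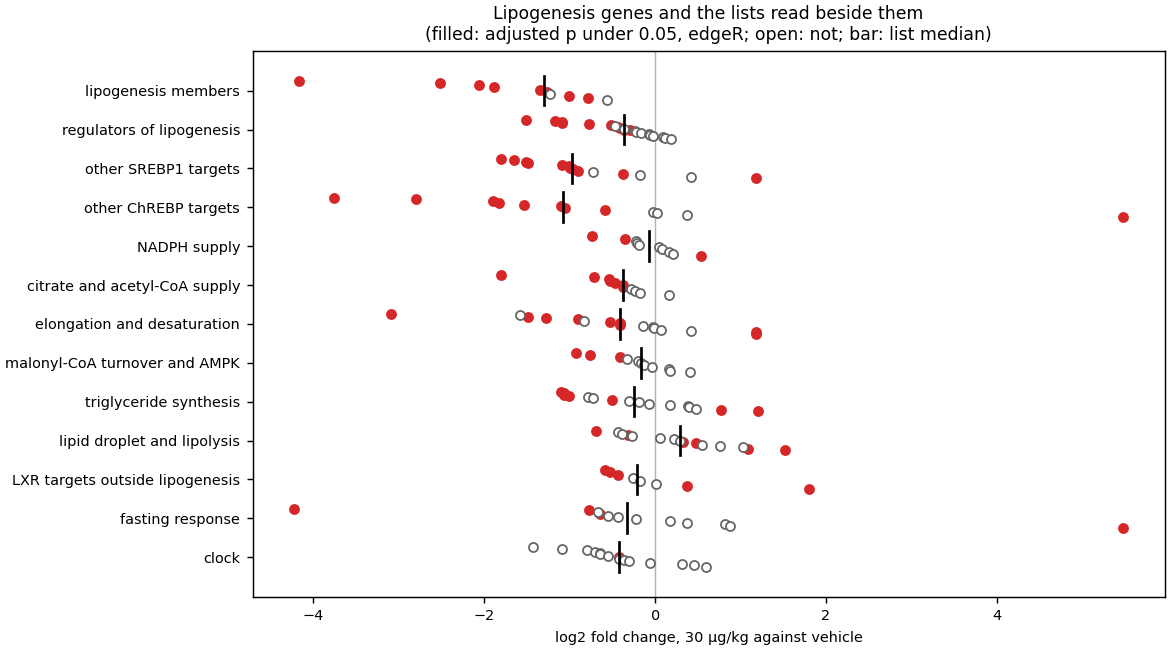
Log2 fold change at 30 µg/kg against vehicle for the 10 lipogenesis genes and 12 lists read beside them, 1 point per tested gene; filled points had an adjusted p under 0.05 in edgeR and bars are list medians. The lipogenesis genes lie wholly left of 0 with a median of -1.31, the other SREBP1 and ChREBP targets have medians of -0.98 and -1.08, and NADPH supply is centred at -0.07.

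Because fasting and the time of day also set these genes, both sets were read beside them. Of 12 fasting genes, 1 was called higher (*Fgf21*) and 3 lower at 30 µg/kg (among them *Cyp4a14*, -4.23, and *Ppargc1a*, -0.77). Of all genes, 15.5% were called higher and 14.1% lower there. *Pck1* (-0.55), *G6pc* (0.37) and *Pdk4* (0.88) were not called. The summed level of the 12 genes was 7398 to 10929.6 CPM in vehicle livers and 4011 to 7036 CPM at 30 µg/kg. The part of feeding state in the fall of the lipogenesis genes was not tested.

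Of 15 clock genes, 1 was called at 30 µg/kg, *Cry2*, which fell by 0.42, while 14.1% of all genes were called lower. Their summed level was 1089 to 1257 CPM in vehicle livers and 694 to 836 CPM at 30 µg/kg, without overlap. *Tef* (-0.70) and *Dbp* (-1.43) were not called singly. The part of the clock in the fall of the lipogenesis genes was not tested. *Arntl*, a core clock gene whose transcript cycles over the day, ranged from 0.431 to 1.36 CPM in vehicle livers, from 0.516 to 3.69 CPM at 3 to 30 µg/kg and from 0.140 to 35.8 CPM at 0.01 to 1 µg/kg, where 9 livers exceeded 4 CPM. Deviations of *Thrsp* from its group means ran with those of *Lpin1* over 45 livers (r = 0.80). *Lpin1* is not among the 15 clock genes but in the lists of other SREBP1 targets and triglyceride synthesis. With clock genes the r of *Thrsp* deviations was 0.68 for *Per1*, -0.73 for *Nr1d1*, -0.18 for *Arntl* and -0.23 for *Dbp*. With *Lpin1*, *Per1* and *Nr1d1* the r of deviations was 0.53, 0.34 and -0.42 for *Elovl6*, 0.49, 0.23 and -0.23 for *Acacb*, and 0.13, -0.06 and -0.17 for *Fasn*. In the same order they were -0.11, -0.18 and 0.14 for *Acly*, -0.09, -0.28 and 0.34 for *Scd1*, and -0.16, -0.15 and 0.24 for *Me1*. Each of these signs was opposite to that of *Thrsp*. For *Acaca* they were 0.10, 0.02 and 0.03, for *Srebf1* 0.24, 0.27 and -0.15, and for *Pnpla3* 0.13, -0.04 and -0.13.

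With the 9 livers left out, a choice made after the values were seen, the counts of lipogenesis genes called lower were 4 at 1, 6 at 3, 7 at 10 and 8 at 30 µg/kg. The share of all genes called lower in this fit was not counted. *Thrsp* then gained a lower slope over dose rank (-0.14, adjusted p = 0.0331, edgeR), and *Srebf1* was also called at 3 µg/kg (adjusted p = 0.0314).

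**Figure D5:**
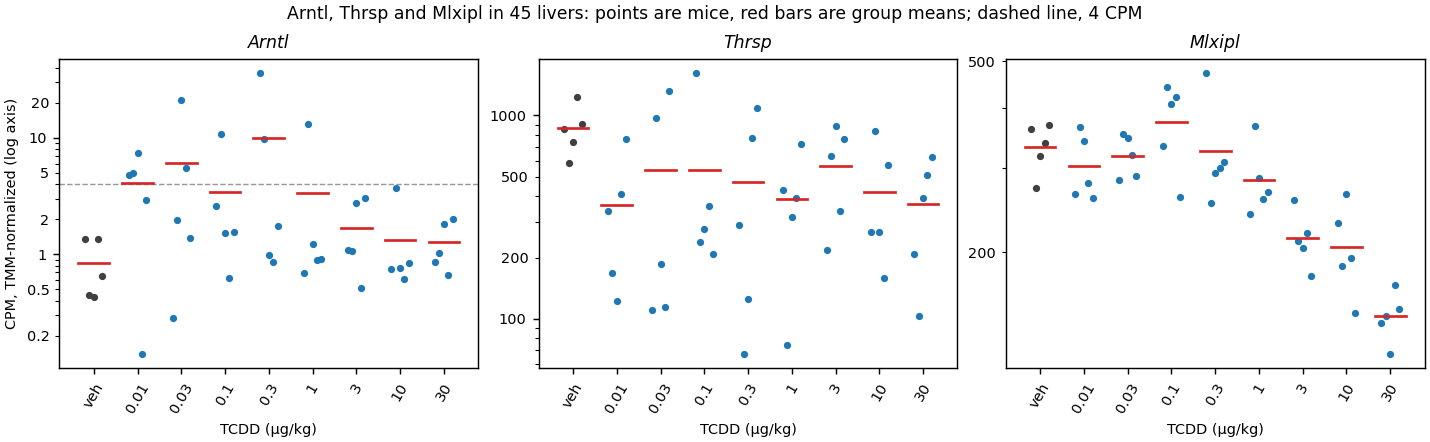
*Arntl*, *Thrsp* and *Mlxipl* in each liver, in TMM-normalized CPM on log axes, by TCDD dose; points are mice, red bars group means and the dashed line 4 CPM of *Arntl*. *Arntl* exceeds the line in 9 livers, all at 0.01 to 1 µg/kg, and *Mlxipl* at 30 µg/kg (123 to 171 CPM) lies below every vehicle liver (272 to 367 CPM).

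Markers of other cells were called higher at the upper doses. At 1 µg/kg none of the stellate cell, leukocyte, endothelial, macrophage or blood markers was called (1.24% of all genes were called higher). The median log2 fold change there was 0.86 for macrophage, 0.85 for leukocyte, 0.41 for stellate cell, -0.08 for endothelial and -0.48 for blood markers. Of 8 hepatocyte markers, 1 was called lower at 1 µg/kg and 3 at 3 µg/kg, against 0.515% and 3.2% of all genes. At 3 µg/kg 2 leukocyte markers and 1 stellate cell marker were called higher, of 7 and 6, against 4.34% of all genes. At 30 µg/kg 4 of 6 stellate cell and fibroblast markers, 4 of 7 leukocyte markers, 4 of 5 endothelial markers, 2 of 7 Kupffer cell and macrophage markers and 5 of 5 blood markers were called higher. Of all genes, 15.5% were called higher at that dose. The summed stellate markers were 259 to 366 CPM in vehicle livers and 496 to 694 CPM at 30 µg/kg, led by *Col1a1* (rose by 2.41), *Reln* (1.71) and *Col3a1* (1.31). Leukocyte markers summed to 7.76 to 14.8 against 16.4 to 35.8 CPM, with *Itgax* and *S100a8* up most, endothelial markers to 115 to 148 against 141 to 225 CPM, macrophage markers to 141 to 216 against 119 to 368 CPM and blood markers to 68.8 to 86.0 against 86.8 to 183 CPM. Of 8 hepatocyte markers 5 were called lower, against 14.1% of all genes. They were *Apoa1* (-1.67), *Fgb* (-0.88), *Ahsg* (-0.63), *Apob* (-0.44) and *Ttr* (-0.34). The sum of the 8 markers overlapped (121939 to 154124 against 112385 to 162083 CPM). The part of cell composition in the fall of the lipogenesis genes was not tested.

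Fat tissue also expresses these genes, and its defining markers were at or near 0. *Adipoq* reached at most 12 reads (0.251 CPM) in any liver, *Plin1* at most 2 reads and *Lep* at most 1 read. The 7 adipocyte markers summed to 24.2 to 31.4 CPM in vehicle livers and 23.6 to 29.3 CPM at 30 µg/kg, nearly all of it *Lipe* and *Fabp4*. Of the 5 tested, 1 was called lower (*Lipe*), against 14.1% of all genes. None of 5 cholangiocyte markers or of 5 tested pancreatic acinar markers was called. The cholangiocyte sum was 52.1 to 77.5 against 53 to 70.2 CPM, and acinar genes summed to at most 0.371 CPM in both groups.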

How the data were processed

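RNA from 45 livers was sequenced by the authors as single 50-base reads from TruSeq libraries, aligned to GRCm38 with TopHat 1.4.1 and counted on Ensembl genes with HTSeq 0.6.1. The deposited values are raw read counts per gene, not normalized. Pools of samples per sequencing run, and HTSeq's strand setting, are not given in the sources used here. Rows that name no gene were kept out of library sizes and tests. Reads on no annotated gene were 9.11% to 17.1%, and ambiguous reads 1.34% to 2.07%, of uniquely aligned reads.

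Genes with more than 4 reads in any sample (17464) entered a quasi-likelihood fit over all 45 livers (edgeR 4.0.16, run under R 4.3.3), in which every group had its own coefficient, libraries were scaled by TMM and 36 residual degrees of freedom remained. It compared each dose with vehicle and with the next lower dose. The slope over dose rank (vehicle 0, then 1 step per dose) was tested in a separate quasi-likelihood fit of the same genes and livers. That fit had dose rank as a number in place of the groups. CPM are read counts scaled by library size and TMM factor, and log2 CPM used a prior count of 2. Alternatives were DESeq2 1.42.0, other normalizations, filters and adjustments, 2-group fits and each mouse left out. Since the labels do not give cages or litters, p-values measure the spread between these mice. Ratios of genes within a liver are descriptions. Positions are from GENCODE on GRCm38 and promoters from RefSeq. On simulated data for 30 µg/kg against vehicle (17031 genes), edgeR recovered 81% of 2-fold and 99% of 4-fold changes with 10 false calls. The simulation changed randomly chosen genes and drew each gene independently, without variation shared between genes of a liver. Its rates are therefore not those of the lipogenesis genes, which varied together. The lipogenesis genes and all lists were chosen with earlier results of these data known. All 10 genes are named. From each list the text names from the 3 largest increases and 3 largest decreases at 30 µg/kg among called genes with a mean of at least 10 reads, the 5 genes most and least alike to the set, *Mlxipl*, *Cyp1a1* and defining cell markers. Other genes named were chosen after their values were seen. A result for a gene of the fasting list is not reported here.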

Additional observations from a re-analysis of the deposited data

Results flagged for a closer look

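In groups of 5 livers, 6 values of the lipogenesis genes lay far from the other 4 of their group by Dixon's test, of 90 groups examined, and chance flags about 1 in 20 groups. At 0.1 µg/kg, replicate 1 held 1614 CPM of *Thrsp* (others 207 to 359) and 23.6 CPM of *Pnpla3* (others 1.61 to 6.99). *Pnpla3* was also high in replicate 4 at 0.3 µg/kg, with 18.5 CPM against 2.59 to 5.57, and in replicate 1 at 10 µg/kg, with 2.17 CPM against 0.566 to 0.949. That last liver also held 228 CPM of *Acly*, against 111 to 138 CPM in the others at 10 µg/kg. *Scd1* was low in replicate 5 at 0.01 µg/kg, with 3505 CPM against 6551 to 7454, and this liver was the one with the high *Marco* and *Cyp1a1* levels. The cause was not tested.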

How the results depend on the processing

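The counts of lipogenesis genes called lower stayed within 1.5 times their main value under all alternatives run except a pair. With adjustment over all genes and 8 doses together, 1 gene (*Me1*) was called lower at 0.01 µg/kg, and with only vehicle and that dose in the fit 7 were called at 1 µg/kg. The share of all genes called was not counted under these alternatives or with single mice left out. Leaving out single mice, the counts ranged from 3 to 5 at 1, 5 to 5 at 3, 6 to 8 at 10 and 6 to 8 at 30 µg/kg, and 7 to 8 for the slope, and 0 genes were called higher. Of single-gene values, 681 of 710 under other alternatives and 1227 of 1250 with a mouse left out kept direction and call. These totals include the 4 lowest doses, where no value was called in the main fit and a kept absence of a call says little. Calls near the limit were less stable. With a mouse left out, *Scd1* at 30 µg/kg and *Me1* at 10 µg/kg each kept their call in 4 of 10 fits. Values that turned sign were small: *Srebf1* at 0.01 µg/kg (0.0083 without the 9 livers over 4 CPM of *Arntl*, and -0.29 to 0.029 with a mouse of that dose left out), *Pnpla3* at 0.1 µg/kg (0.18 without vehicle replicate 4, -1.06 to 0.036 with a mouse of that dose left out) and the *Acacb* slope (0.018 without the vehicle group). The cause was not tested.

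Scaling by library size alone moved the median of all genes to 0.23 at 30 µg/kg, and *Scd1* (adjusted p = 0.0562) and *Me1* (0.0610) were then not called, leaving 6. *Me1* at 10 µg/kg lost its call under that scaling (0.113), with adjustment over all doses (0.0947) and with all genes of at least 1 read tested (0.0541). *Scd1* was also lost with adjustment over all doses (0.0792). Leaving out 1 mouse added a call for *Pnpla3* at 1 µg/kg (without vehicle replicate 2, adjusted p = 0.0438) and for *Scd1* at 10 µg/kg (without vehicle replicate 3, 0.0325, or replicate 2 of that dose, 0.0463). *Acacb* (0.0341) and *Thrsp* (0.0164) were called at 30 µg/kg only in the fit of vehicle and that dose. In fits of this kind *Acacb* was also called at 1 µg/kg (0.0342) and 10 µg/kg (0.0245). No paired analysis was possible because the labels carry no replicate numbers and the numbers used here only name mice in accession order. *Pnpla3*, with 5 to 22 reads per liver at 30 µg/kg, is the value that depth limits most.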
